A study of Mus musculus with 4 samples.

Results

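The cytosolic ribosome of the mouse is built from rRNA and from proteins encoded by genes whose symbols begin with Rps (small subunit) or Rpl (large subunit). The genes described here were chosen by symbol alone: a symbol made of Rps, Rpl or Rplp, a number, and at most a single-letter suffix (a, x, l or y) and a further digit. This took 84 of the 35976 gene symbols in the count files, 32 for the small subunit and 52 for the large. RefSeq classes 83 of them as protein-coding and Rps4l as a transcribed pseudogene. Genes such as Rpsa, Fau, Rack1 and Rpl36al also encode ribosomal proteins but their symbols fall outside the rule, and they were measured separately.

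The cells were mouse double-positive (DP) thymocytes, immature T cells that carry both coreceptors CD4 and CD8, sorted from thymus as CD24+TCRb-CD4+CD8a+. Control libraries came from Cxxc1 +/+ :Lck-cre mice (2 libraries) and knockout (KO) libraries from Cxxc1 F/F :Lck-cre mice (2 libraries), so every library carries the Lck-cre transgene, which expresses Cre recombinase in T-lineage cells. Cxxc1 encodes a protein that binds unmethylated CpG sites and brings a histone methyltransferase complex to promoters. No age was given, double-negative libraries of the same study were not analysed here, and nothing in the labels says that replicates came from separate animals, so p-values measure the spread between these libraries, which may be technical. In bulk RNA, fewer cells of a type and less RNA per cell cannot be told apart.

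Ribosomal proteins are made in matched amounts and assembled with rRNA in the nucleolus. Their mRNAs are short and abundant, and most begin with a 5′ terminal oligopyrimidine (TOP) tract, a C followed by pyrimidines at the start of transcription, through which mTOR and Larp1 control their translation. In the thymus, dividing precursors at the beta-selection checkpoint make ribosomes rapidly, and Rpl22 and its paralogue Rpl22l1 have known opposing roles in early T-cell development. Many ribosomal protein genes also hold small nucleolar RNAs (snoRNAs), which guide rRNA modification, in their introns.

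Promoter sequences from RefSeq (GRCm38.p6, the build also called mm10) were found for 63 of the 84 genes. Shown first are the 90 bases from 60 before to 30 after the start of the first-listed transcript of 5 of the genes with the highest KO over control values, 5′ to 3′ on the gene's strand. Capitals mark the first run of a C followed by at least 5 pyrimidines found, on that strand, between 20 bases before and 30 after the start. These letters are like those of a TOP tract. A run wholly before the listed start, as marked in Rpl10a, would lie outside an mRNA that begins there.
Rps12: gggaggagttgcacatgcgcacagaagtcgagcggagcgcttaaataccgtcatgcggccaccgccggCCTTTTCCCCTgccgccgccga
Rps19: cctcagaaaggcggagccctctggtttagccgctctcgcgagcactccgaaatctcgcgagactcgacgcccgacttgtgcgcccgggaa
Rpl10a: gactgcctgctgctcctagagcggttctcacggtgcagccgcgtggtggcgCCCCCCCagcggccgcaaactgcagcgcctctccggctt
Rpl22: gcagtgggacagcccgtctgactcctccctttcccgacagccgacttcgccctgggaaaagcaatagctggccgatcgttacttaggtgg
Rpl22l1: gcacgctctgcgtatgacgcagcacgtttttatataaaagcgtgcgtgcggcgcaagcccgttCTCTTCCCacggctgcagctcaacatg
Rps12 lies on the minus strand (chr10:23787180-23787269), Rps19 on the plus strand (chr7:24884532-24884621), Rpl10a on the plus strand (chr17:28328411-28328500), Rpl22 on the plus strand (chr4:152325666-152325755) and Rpl22l1 on the plus strand (chr3:28805448-28805537). The stretches of Rps12 and Rpl22 lie inside the annotated genes, whose outer 5′ ends are at 23787383 and 152324436. They therefore do not show the sequence at the outermost start of these genes. The next 3 belong to genes with low KO over control values, shown for contrast.
Rps27: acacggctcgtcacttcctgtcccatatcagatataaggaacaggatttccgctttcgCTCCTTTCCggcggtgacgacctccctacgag
Rps28: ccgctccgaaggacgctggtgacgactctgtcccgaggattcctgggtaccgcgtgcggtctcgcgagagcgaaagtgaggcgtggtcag
Rpl10: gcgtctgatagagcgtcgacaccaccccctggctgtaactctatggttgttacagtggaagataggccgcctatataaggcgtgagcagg
Rps27 lies on the minus strand (chr3:90213619-90213708), Rps28 on the minus strand (chr17:33824533-33824622) and Rpl10 on the plus strand (chrX:74270756-74270845). The run was present in 44 of the 63 promoters (69.8%), against 34.3% of 27025 promoters of all genes and 33.5% of 5353 promoters of tested protein-coding genes with at least 20 CPM (counts per 1000000 counts). It does not separate the genes shown with high values from those with low ones. Over all tested ribosomal protein genes with a sequence, the median log2 fold change was 0.75 for the 43 with the run and 0.69 for the 18 without.

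Other letters were searched on both strands of the 300 bases from 250 before to 50 after the start. The ETS-family site CCGGAAG, the core of the GABPA motif, was found in 38.1% of the 63 promoters, against 9.12% of all promoters and 22.7% of those of tested protein-coding genes with at least 20 CPM. The YY1 core AAGATGGC was found in 7.94%, 2.88% and 5.98% of the same sets. The TATA letters TATAAA were found in 11.1%, 14.2% and 5.62%, the E-box CACGTG in 7.94%, 7.24% and 10.9%, and the SP1 letters GGGCGG in 58.7%, 35.9% and 68.7%. The ETS and YY1 letters can overlap, since the first ends and the second begins with AAG. The median number of CpG sites per promoter was 21 in the ribosomal protein genes, 7 in all promoters and 23 in tested protein-coding genes with at least 20 CPM. Across the tested ribosomal protein genes, Spearman's rho between promoter CpG count and log2 fold change was 0.07, a description over genes that share the same 4 libraries. A match to these letters is not evidence of binding.

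Each library held between 12150508 counts (control 1) and 36243182 counts (KO 1). The count table of control 1 is thus the shallowest. Cxxc1 itself had 111 and 53.5 CPM in the control libraries against 35.7 and 39.4 CPM in those of the knockout, a log2 fold change of -1.12 ± 0.34 (standard error) with an adjusted p of 0.199 (edgeR's quasi-likelihood test, Benjamini-Hochberg adjustment). Both KO libraries were below the controls. The sorted cells' defining coreceptor gene Cd4 was present in every library, at 893.5 and 896 CPM in control and 142 and 277 CPM in KO. Over all 20389 genes tested, 92 genes (0.451%) passed an adjusted p of 0.05 in the comparison of KO with control.

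No ribosomal protein gene passed that test, yet nearly all had higher values in the KO libraries. Of the 84 genes, 81 passed the low-count filter (31 small-subunit, 50 large-subunit), and 79 of these had a positive log2 fold change. Their median log2 fold change was 0.70, a 1.63-fold higher level, whereas the median over all tested genes was -0.04 and over the 7172 tested genes with at least 20 CPM was 0.04. The smallest adjusted p among the 81 was 0.0689. At an unadjusted p of 0.05, 51 were higher in KO and 0 lower, against 6.97% of all tested genes that were higher by the same rule. Both KO libraries lay above both control libraries for 66 of the 81, against 22.8% of all tested genes. DESeq2, run as an alternative, called 22 of the 81 higher (8 small-subunit, 14 large-subunit) and 0 lower, against 2.21% of all tested genes that it called higher.

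**Figure D1:**
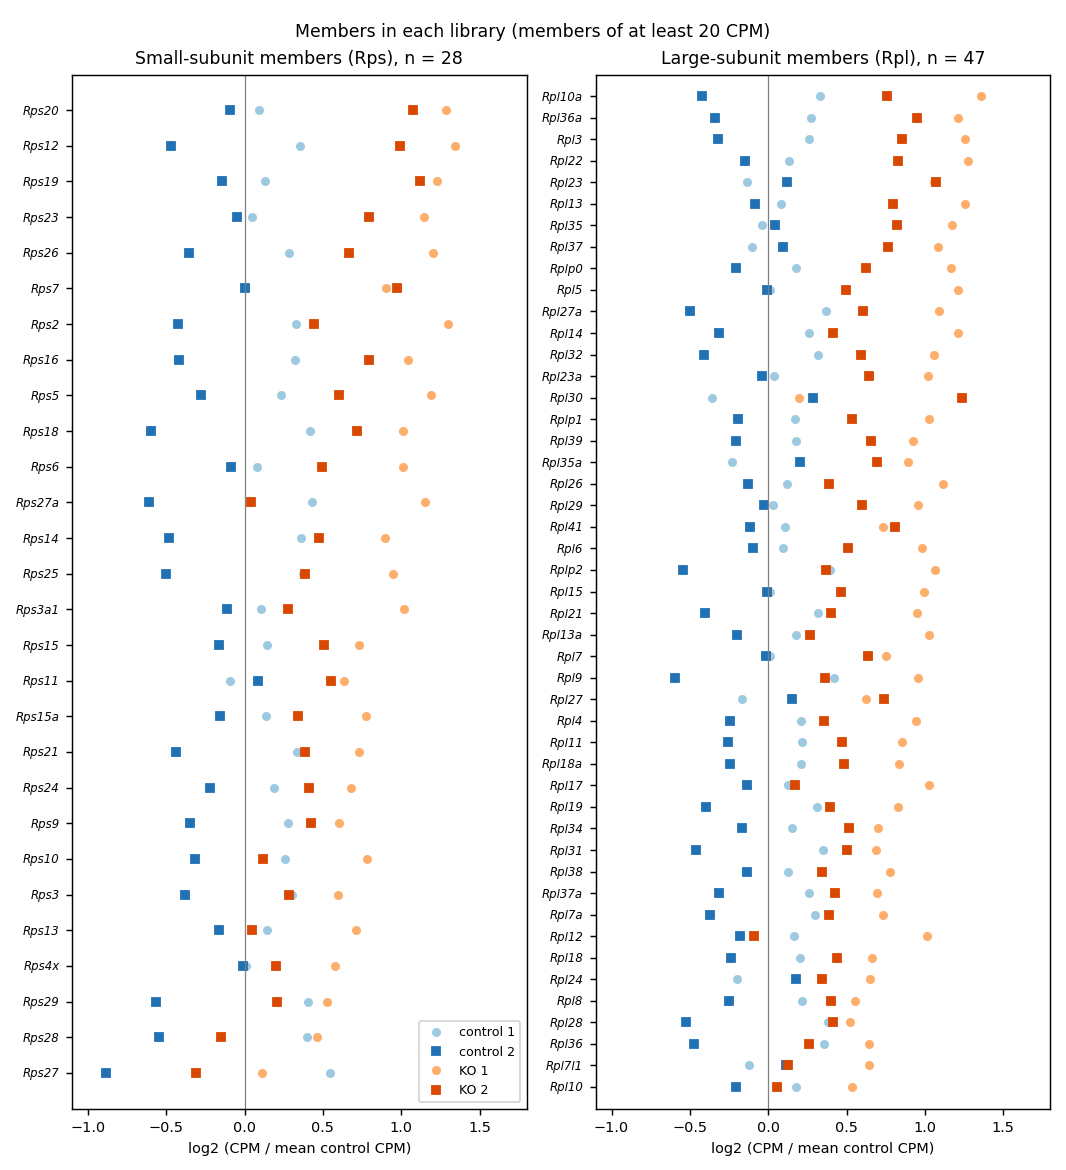
Ribosomal protein genes with a mean of at least 20 CPM, save those not reported by name (rows, 28 small-subunit genes on the left and 47 large-subunit genes on the right, sorted by log2 fold change), with the log2 of the CPM in each library over the mean control CPM on the horizontal axis. Points are single libraries; the KO points lie to the right of the control points for most genes, and KO 2 is often close to control 1.

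The medians of the subunits were close to each other. The median log2 fold change was 0.70 for the small subunit and 0.76 for the large. Among the 77 genes with at least 20 CPM, the interquartile range was 0.57 to 0.90. A log2 fold change of at least 0.5 was measured for 67 genes, of at least 0.75 for 38 and of at least 1 for 12.

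Read as a share of all counts, ribosomal protein genes took 1.72% and 1.37% in the control libraries (1 and 2) against 2.95% and 2.41% in the KO libraries (1 and 2). The KO shares were both above the control shares. Large-subunit counts were 1.87, 1.92, 1.96 and 1.86 times the small-subunit counts in the same order, so the balance of the subunits hardly moved while the total did. The summed level was 17581 and 13792 CPM in control against 30681 and 22760 CPM in KO.

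**Figure D2:**
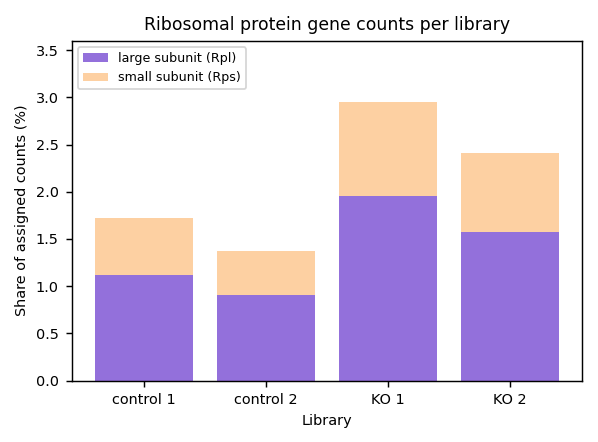
Share of each library's assigned counts (percent, vertical axis) that fell on large-subunit and small-subunit ribosomal protein genes, stacked, 1 bar per library. The controls stand at 1.72% and 1.37% and the KO libraries at 2.95% and 2.41%.

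The libraries of one genotype also differed from each other. Control 1 lay above control 2 for 71 of the 81 genes, with a median log2 difference of 0.38, and KO 1 above KO 2 for 74, with a median of 0.39. The nearest libraries of different genotype were KO 2 and control 1, whose median log2 ratio was 0.27, with 67 of 81 genes higher in KO 2. For KO 1 over control 2, the farthest, the median log2 ratio was 1.12. Leaving out single libraries moved the number of genes called: 16 were called higher without control 1, where 3.81% of all tested genes were called in either direction. It was 18 without KO 2 (1.71% of all tested genes) and 3 without KO 1, namely Rpl23, Rps19 and Rps20 (0.961%). Without control 2, 0 were called higher and 1 lower (3.73% of all tested genes), and that call, Rpl10l, rests on 33 counts in control 1 against 0 elsewhere. In each of these fits 1 genotype has a single library, which is assumed to vary like the other genotype, whose pair of libraries alone gives the spread. The median log2 fold change stayed between 0.53 and 0.95 in these fits.

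In the small subunit, the highest log2 fold changes belonged to proteins of the head, though the head also holds Rps29, at 0.38. Rps20, a head protein that contacts rRNA and is mutated in some families with Diamond-Blackfan anaemia, had 202 and 177 CPM in control against 462 and 398 CPM in KO. Both KO values were above both control values, and the log2 fold change was 1.18 ± 0.23 (edgeR adjusted p = 0.0689). Rps20 overlaps the gene Gm32823, so its counts are uncertain. Rps19, the gene most often mutated in Diamond-Blackfan anaemia, stood at 101 and 83.5 CPM in control and at 216 and 201 CPM in KO, without overlap. Its log2 fold change was 1.17 ± 0.22 (edgeR adjusted p = 0.0689). Rps12, which sits at the beak of the head, was at 37.9 and 21.5 CPM against 75.2 and 59.0 CPM, a log2 fold change of 1.18 ± 0.32 (edgeR adjusted p = 0.168). With genes kept at a mean of at least 5 CPM, Rps20 and Rps19 were called (edgeR adjusted p = 0.0397 for both). They were 2 of the 79 ribosomal protein genes kept, and 2.10% of all genes tested in that setting were called, a similar share. The 10 tested genes for head and beak proteins all had positive log2 fold changes, from 0.38 to 1.18 with a median of 0.80. Of these, 7 (70%) had no overlap between the genotypes, against 74.2% of tested small-subunit genes and 22.8% of all tested genes.

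Most genes for the decoding and mRNA side of the small subunit had similar values. Rps23, which lines the decoding centre, is one of the most abundant, at 534 and 500.3 CPM in control and 1144 and 896 CPM in KO. The log2 fold change of Rps23 was 0.98 ± 0.24 (edgeR adjusted p = 0.12), and the groups did not overlap. The 8 tested genes of this list had a median log2 fold change of 0.81, from 0.19 for Rps28 to 0.98 for Rps23. Of these, 6 of 8 (75%) did not overlap, against 74.2% of tested small-subunit genes and 22.8% of all tested genes. Rps7, a protein of the body of the subunit, was at 321 and 323 CPM against 602 and 632 CPM, and its controls nearly coincided.

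Rps6, the protein phosphorylated by S6 kinase downstream of mTOR, was at 343 and 306 CPM in control and 654 and 457 CPM in KO, a log2 fold change of 0.78 ± 0.25 (edgeR adjusted p = 0.223). The abundant Rps3a1 was higher in both KO libraries as well, at 407 and 351 CPM against 769 and 460.2 CPM. Rps27a, made as a fusion with ubiquitin, spread more within genotypes than between them, at 96.3 and 46.9 CPM in control and 159 and 73.7 CPM in KO. Its log2 fold change was 0.71 ± 0.41 (edgeR adjusted p = 0.502), and KO 2 lay between the controls.

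Some small-subunit genes had small differences. Rps27, a zinc-binding protein of the subunit's platform side, was at 98.9 and 36.7 CPM in control and 73.1 and 54.8 CPM in KO. Both KO values lay between the control values, and the log2 fold change was -0.08 ± 0.41 (edgeR adjusted p = 0.964). Rps28 was at 72.1 and 37.5 CPM against 75.7 and 49.4 CPM, with a log2 fold change of 0.19 ± 0.35. Rps29, a small head protein, was at 138 and 70.9 CPM against 151 and 121 CPM, with a log2 fold change of 0.38 ± 0.32. In all of these, control 1 was well above control 2, and the estimates moved with the library left out. Without control 1, Rps27 had a log2 fold change of 0.82 (edgeR adjusted p = 0.285). Rps4x, encoded on the X chromosome, was at 208 and 205 CPM against 308 and 237 CPM, the controls close and both KO libraries above them, with a log2 fold change of 0.40 ± 0.23.

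In the large subunit, the P stalk, which recruits elongation factors, was led by the most abundant gene of all by CPM. Rplp0, the stalk's base protein, was at 1127 and 865 CPM in control and 2230.2 and 1533 CPM in KO. The groups did not overlap, and the log2 fold change was 0.92 ± 0.28 (edgeR adjusted p = 0.196). Rplp1 was at 611 and 476 CPM against 1105 and 787 CPM. Rplp2, its partner in the stalk dimers, was at 328 and 171 CPM against 523 and 323 CPM, and KO 2 was just below control 1. The 4 tested genes of the stalk and its base, Rpl12 included, had a median log2 fold change of 0.78. Of these, 2 (50%) did not overlap, against 86% of tested large-subunit genes and 22.8% of all tested genes.

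Rpl5 and Rpl11 enter the ribosome together as a particle with an rRNA, and unassembled they bind Mdm2, the inhibitor of p53. Rpl5 was at 436 and 431 CPM in control and 1002 and 612 CPM in KO, a log2 fold change of 0.90 ± 0.28 (edgeR adjusted p = 0.208). Rpl11 was at 216 and 155 CPM against 336 and 257 CPM, a log2 fold change of 0.68 ± 0.26 (edgeR adjusted p = 0.29). Neither gene's groups overlapped. Trp53, which encodes p53, was at 67.5 and 93.2 CPM in control and 136 and 78.8 CPM in KO, with overlap. Its target Cdkn1a was at 8.41 and 1.07 CPM against 13.7 and 3.88 CPM, also with overlap.

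The genes for proteins of the polypeptide exit tunnel and its rim, where nascent chains leave, had no overlap between genotypes in 10 of 10 cases. The share was 86% of tested large-subunit genes and 22.8% of all tested genes. The median log2 fold change of the 10 was 0.74, against 0.76 for the large subunit. Rpl4, which reaches into the tunnel, was at 566 and 414 CPM against 943 and 629 CPM. Rpl39, a short tunnel protein encoded on the X chromosome, was at 70.4 and 53.9 CPM against 118 and 98.0 CPM. Rpl38, known for a role in translating Hox mRNAs, was at 50.4 and 42.1 CPM against 79.2 and 58.7 CPM. Rpl22, at the rim of the tunnel, had one of the larger differences. It stood at 296 and 243 CPM in control and 651 and 479 CPM in KO, a log2 fold change of 1.07 ± 0.25 (edgeR adjusted p = 0.109).

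Rpl10a, Rpl36a and Rpl3 had log2 fold changes over 1 as well. Rpl10a, at the mobile stalk near the exit site, was at 124 and 73.4 CPM in control and 253 and 166 CPM in KO. Rpl36a, near the exit site for tRNA, was at 74.99 and 49.0 CPM against 144 and 119 CPM, a log2 fold change of 1.09 ± 0.27 (edgeR adjusted p = 0.124). Rpl3, close to the peptidyl transferase centre, was at 205 and 137 CPM against 408 and 309.6 CPM. In none of these genes did the groups overlap. Rpl13a, released from the ribosome in interferon responses, was at 772 and 594 CPM against 1393 and 822 CPM. Rpl41, which encodes a very short basic protein, was at 239 and 204 CPM against 368 and 389 CPM. Rpl7 was at 364 and 357 CPM against 606 and 561 CPM, with little spread within genotypes.

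The lowest log2 fold changes among large-subunit genes with at least 20 CPM were those of Rpl10, Rpl7l1, Rpl36 and Rpl28. Rpl10, a late-joining protein encoded on the X chromosome that is mutated in some T-cell leukaemias, was at 85.5 and 65.4 CPM in control and 109 and 78.4 CPM in KO. KO 2 lay between the controls, and the log2 fold change was 0.31 ± 0.26 (edgeR adjusted p = 0.669). Rpl36 was at 203 and 114 CPM against 248 and 189 CPM. Rpl28 was at 148 and 79.1 CPM against 163 and 152 CPM. For Rpl36 the groups overlapped, while for Rpl28 they did not but the gap was small. The 4 X-linked genes, Rpl10, Rpl36a, Rpl39 and Rps4x, had a median log2 fold change of 0.60.

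The paralogues, some of them known for expression in muscle or testis, were mostly at low levels. Rpl22l1 was at 5.97 and 4.62 CPM in control and 9.47 and 13.0 CPM in KO, a log2 fold change of 1.09 ± 0.46 (edgeR adjusted p = 0.337). Rpl22 and Rpl22l1 thus had nearly the same log2 fold change, but at very different levels. Per kilobase of exonic sequence, the control means were 131 CPM for Rpl22 and 9.43 CPM for Rpl22l1. Rpl7l1, a paralogue linked to ribosome assembly, was at 57.3 and 67.6 CPM against 97.3 and 68.2 CPM. Rps27l, a p53-induced relative of Rps27, was at 19.4 and 9.55 CPM against 21.5 and 10.6 CPM, a within-genotype spread larger than the log2 fold change of 0.16 ± 0.48. Rpl3l, known from striated muscle, was near 1 CPM in all libraries, with a log2 fold change of -0.51 ± 1.18. Rpl32l, which lies within the gene Map7, had 3 and 3 counts in control against 62 and 27 in KO, so its fitted log2 fold change of 2.95 ± 1.67 rests on few reads. Without strand information, reads of Rpl32l and Map7 cannot be told apart.

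The 3 genes that were not tested were Rpl10l, Rpl39l and Rps4l. Rpl10l, known from testis, had 33 counts in control 1 and 0 in the other libraries. Rpl39l had 3 counts in control 1 and 0 elsewhere. Rps4l had 7 counts in control 1, 4 in KO 1 and 0 elsewhere. A count of 0 allows up to 0.0865 CPM in control 2, 0.0861 CPM in KO 1 and 0.0843 CPM in KO 2, counting error only.

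The profile of levels across the genes was similar in the genotypes. Per kilobase of exonic sequence, the control mean ran from 19.9 CPM for Rpl7l1 to 1089 CPM for Rplp1 among the 77 genes with at least 20 CPM. The median over these genes was 151 CPM per kilobase in control and 272.5 in KO. Rplp0, also among the highest in control, was at 733 CPM per kilobase. Pearson's r between the log2 mean levels per kilobase of control and KO was 0.985 over these genes. Between single libraries it was 0.955 for the controls and 0.977 for KO. The first value compares group means, which carry less library noise, so it cannot be set against the other values. All of these values describe genes, which share their libraries and are not replicates.

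Genes linked to disease had similar values. Of the 21 tested genes on a list of genes linked to Diamond-Blackfan anaemia, an inherited failure of red-cell production, 20 had a positive log2 fold change. The median was 0.68, and 17 (81.0%) had no overlap between genotypes. The share was 81.5% of all tested ribosomal protein genes and 22.8% of all tested genes. The exception in direction was Rps27. Of the ribosomal proteins outside the symbol rule, 5 of 5 had positive values and a median of 0.65. Rpsa, the laminin receptor and small-subunit protein, was at 815 and 401 CPM in control and 1342 and 796 CPM in KO, with overlap. Rack1, a signalling scaffold on the small subunit, was at 435 and 397 CPM against 765 and 541 CPM. Fau, a ubiquitin-like fusion, was at 158 and 108 CPM against 203 and 124 CPM, with overlap.

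Lists of genes for translation, ribosome assembly, mitochondria and the proteasome had positive medians too, most of them smaller. For comparison, 47.6% of all tested genes had positive values, and 53.7% of those with at least 20 CPM. Among 15 other genes with TOP mRNAs or for elongation factors, 14 had positive values, 0 passed the edgeR test and the median log2 fold change was 0.45. Eef1a1, the main elongation factor for tRNA delivery, was at 1758 and 1365 CPM in control and 2627 and 1881 CPM in KO. Eef2, the translocation factor, was at 1268 and 973 CPM against 1597 and 1396 CPM. Among 33 genes of rRNA synthesis and processing, 28 were positive, 0 passed the test and the median was 0.70. That is the median of the ribosomal protein genes, but the interquartile range was wider, 0.20 to 1.04, and the KO libraries differed more. KO 1 exceeded KO 2 by a median log2 of 0.70. KO 1 lay above both controls for 26 of 33 genes and KO 2 for 15. Both did so for 15 (45.5%), against 81.5% of tested ribosomal protein genes and 22.8% of all tested genes. Ncl (nucleolin), the most abundant of these, was at 1427 and 1281 CPM in control against 2724 and 1264 CPM in KO, so only KO 1 was higher. Mitochondrial ribosomal protein genes, which serve the separate ribosome of that organelle, had 70 of 77 positive values, 0 called, and a median of 0.43. Nuclear genes of the respiratory chain had 71 of 84 positive, 0 called, and a median of 0.37. Proteasome subunit genes had 32 of 39 positive, 0 called, and a median of 0.22.

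**Figure D3:**
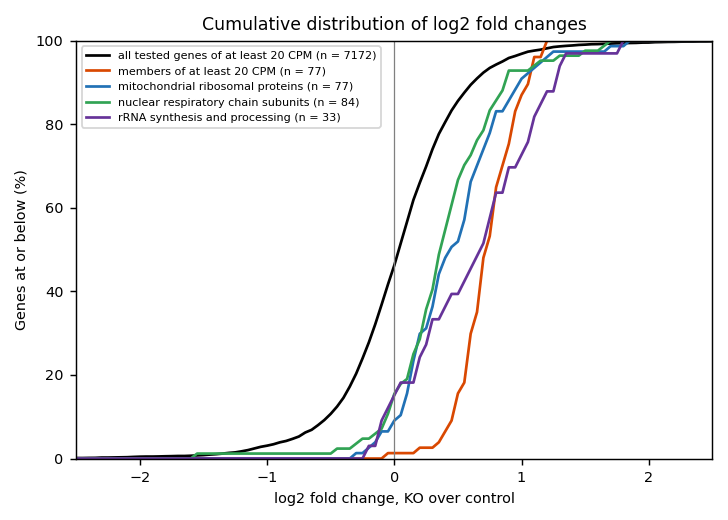
Cumulative share of genes (percent, vertical axis) with a log2 fold change of KO over control at or below the value on the horizontal axis. The curves of 77 ribosomal protein genes and of all 7172 tested genes hold only genes with at least 20 CPM. Those of mitochondrial ribosomal proteins (77), respiratory chain subunits (84) and rRNA synthesis and processing (33) hold every tested gene, with no CPM minimum. The curve of ribosomal protein genes is steep around its median of 0.70, and that of all genes is centred near 0.04.

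Of 14 regulators linked to ribosomal protein genes, 1 passed the edgeR test. Myc, a transcription factor known to drive ribosome production, rose from 21.9 and 13.0 CPM in control to 201 and 109 CPM in KO, a log2 fold change of 3.16 ± 0.38 (edgeR adjusted p = 0.0156). Larp1, which binds TOP tracts, was at 231 and 195 CPM against 360.4 and 221 CPM, with overlap. The kinase gene Rps6kb1 and the translation repressor gene Eif4ebp2 had log2 fold changes of 0.16 ± 0.22 and -0.02 ± 0.23. The median over the list was 0.10, and 8 of 14 values were positive. The part of Myc in the values of the ribosomal protein genes was not tested.

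The snoRNAs inside the same genes mostly had lower values in KO, though none passed the test. RefSeq places 56 snoRNAs within 29 of the 84 genes, of which 33 had a symbol in the count files and 32 passed the low-count filter. Of these, 3 of 32 had a positive log2 fold change, 0 were called and the median was -0.62, whereas the 29 host genes were all positive with a median of 0.80. Snord15b, within Rps3 and the most abundant, was at 887 and 704 CPM in control and 720.1 and 375 CPM in KO, with overlap and a log2 fold change of -0.54 ± 0.32. Rps3 was at 326 and 203 CPM against 400.1 and 322 CPM, also with overlap. Snora21, within Rpl23, was at 235 and 115 CPM against 190.4 and 99.4 CPM. Rpl23, in contrast, was at 112 and 133 CPM against 255 and 258 CPM, a log2 fold change of 1.06 ± 0.22 (edgeR adjusted p = 0.0855). Control 1 exceeded control 2 by a median log2 of 1.32 for the snoRNAs, which is larger than their difference between genotypes, and both KO libraries lay below both controls for 4 of 32, against 24% of all tested genes. Summed over the list, the snoRNAs stood at 2487 and 1375 CPM in control against 1878 and 961 CPM in KO, so KO 1 lay between the controls.

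**Figure D4:**
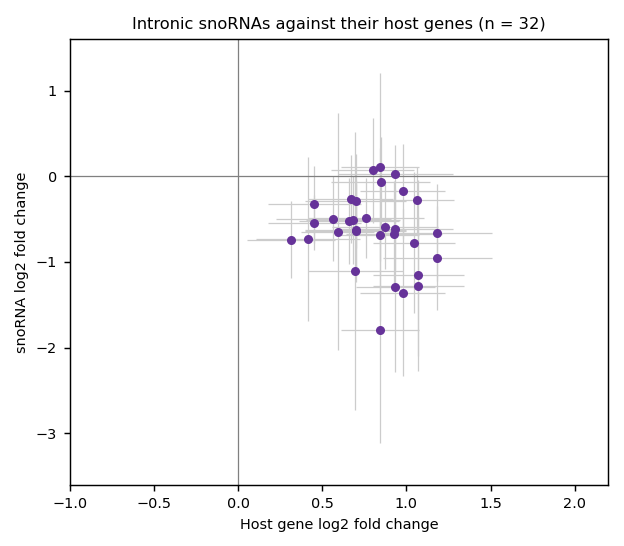
Log2 fold change of each of 32 snoRNAs (vertical axis) against that of the ribosomal protein gene that holds it (horizontal axis), with standard errors as bars. All hosts lie to the right of 0, and 29 of the 32 snoRNAs lie below 0.

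Processed copies share sequence with these genes, and reads can be split among near-identical copies by the counting. Of 12 pseudogene symbols, 10 were tested, 7 had a positive log2 fold change, 0 were called and the median was 0.42. Rpl14-ps1, the most abundant, was at 133 and 95.5 CPM in control and 254 and 224 CPM in KO, a level near that of Rpl14 itself (163 and 109 CPM against 314 and 181 CPM), so Rpl14 is uncertain. The 15 ribosomal protein genes that overlap another gene in the files are also uncertain. Among them are Rps20, which overlaps Gm32823, and Rps27a, which overlaps Clhc1. Only copies named by a ribosomal protein symbol followed by -ps were searched, so the levels of the other genes may be affected by copies under other symbols. Over the 67 tested genes without an overlapping gene, the median was 0.70.

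Ribosomal protein genes have short mRNAs, and the medians of other short genes were also above 0. Among tested protein-coding genes outside the family with at least 20 CPM, the median log2 fold change was 0.27 for 49 genes of up to 750 exonic bases, 0.29 for 72 of 750 to 1000, 0.22 for 339 of 1000 to 1500, 0.12 for 1065 of 1500 to 2500 and 0.03 for 2881 of 2500 to 5000. In the same bins, the ribosomal protein genes had medians of 0.67 (20 genes), 0.79 (19 genes), 0.70 (24 genes), 0.70 (9 genes) and 0.62 (4 genes). Over 5000 bases, 2059 other genes had a median of -0.016 and the family has 1 gene, Rps15a, at 0.58. The medians of the family were above those of other genes in each of the bins up to 5000 bases, the longest of which holds 4 family members. Within the family, Spearman's rho of log2 fold change with exonic length was -0.07, and with mean CPM 0.24.

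**Figure D5:**
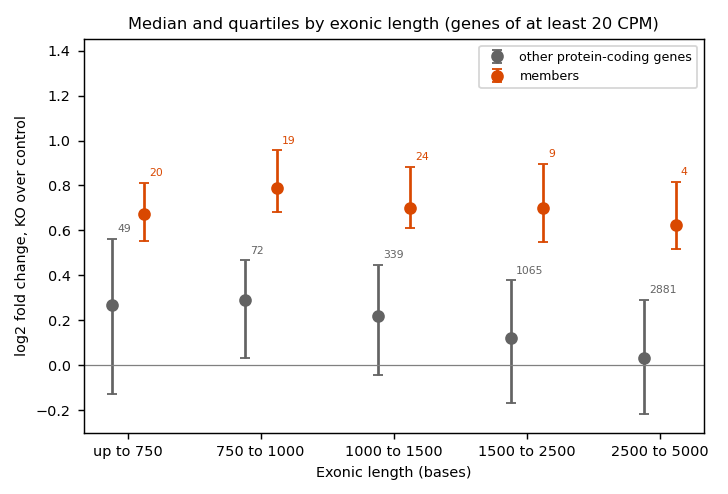
Median log2 fold change of KO over control (points) with the quartiles (bars) for protein-coding genes of at least 20 CPM, by exonic length in bases (horizontal axis), for ribosomal protein genes and for the other genes. The number by each bar is the number of genes; up to 5000 bases, the range drawn, the medians run from 0.62 to 0.79 for the family and from 0.03 to 0.29 for the others.

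Markers of developmental stage and of other cells differed between the same libraries. DP markers were lower in KO: 8 of 8 had negative values, with a median log2 fold change of -1.83, and their summed level ran from 10731 to 14007 CPM in control and from 4404 to 7025 CPM in KO. Of these, Cd4, Cd8a and Dntt fell by the edgeR test (adjusted p from 0.025 to 0.0442). Markers of the earlier double-negative stage had 8 of 9 positive values and a median of 2.13, with sums of 530.2 to 834 CPM in control and 1605 to 3233 CPM in KO. Il2ra, Il7r, Notch3 and Dtx1 rose by that test (adjusted p from 0.00616 to 0.0408). Of 8 cycling-cell markers, 2 had positive values, 0 were called and the median was -0.26, with sums of 3793 to 4991 CPM in control and 3012 to 4281 CPM in KO. Erythroid sums were 10.3 to 14.9 CPM in control and 26.4 to 38.2 CPM in KO, with Hba-a1, Hba-a2, Hbb-bs and Hbb-bt at 0 counts in both controls, which allows up to 0.252 CPM in control 1 and 0.0865 CPM in control 2. The globin gene Hba-a1, at 14.6 and 6.49 CPM in KO, was the only erythroid gene called higher. Summed B-cell markers ran from 7.01 to 9.33 CPM in control and from 7.73 to 10.7 CPM in KO, myeloid markers from 44.1 to 57.7 and from 58.3 to 91.6 CPM, and stromal markers from 137 to 164 and from 142 to 163 CPM. The part of these markers in the values of the ribosomal protein genes was not tested.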

How the data were processed

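Bulk RNA-seq count tables were deposited for 4 DP thymocyte libraries, 1 per library: whole-number read counts per gene symbol, not normalized. Tools listed in the submitters' processing notes are HISAT2 2.2.1 and featureCounts 2.0.8 for the build mm10, besides edgeR 3.36.0 and cutadapt 4.0. Not given in the sources used here are the annotation, the strand setting and the handling of multi-mapped reads. Groups come from the sample titles.

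Counts were filtered with filterByExpr (minimum count 10), scaled by TMM and tested with edgeR 4.0.16 (estimateDisp, glmQLFit, glmQLFTest; R 4.3.3, limma 3.58.1) on genotype alone, with Benjamini-Hochberg adjustment over all 20389 tested genes at 0.05. CPM use TMM-scaled library sizes. Fold changes are KO over control, ± the standard error derived from the F statistic. DESeq2 1.42.0 was an alternative. The procedure was also run on simulated data, but only with changes larger than the median difference of the ribosomal protein genes. That run therefore does not cover differences of this size. Exonic lengths came from GENCODE vM21 and positions and promoters from RefSeq GRCm38.p6.

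Given with every value were genes with the 5 highest and 5 lowest fold changes and the 5 highest mean CPM per subunit, and a preset list. For other lists, called genes and up to 4 with the highest CPM were eligible. Rps3, Rps15a, Rpl14, Rpl23, Trp53, Cdkn1a and the marker genes named were added after their values were seen. Some genes are not reported here by name. Members and lists were chosen with earlier results of these data known. No library was treated as a duplicate, since all pairs differed beyond counting noise (lowest chi-square per degree of freedom, 57.3). Alternatives were another scaling, filter or test, a replicate block, removal of abundant small noncoding RNAs and leaving out each library.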

Additional observations from a re-analysis of the deposited data

How the results depend on the processing

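The calls depended on the setting and on single libraries. The number of ribosomal protein genes called was 0 as reported, and also 0 with RLE factors, library totals, TMM without these genes, the newer quasi-likelihood setting or no small noncoding RNAs. It was 25 with no low-count filter (3.01% of all genes tested were then called), 2 with a mean of at least 5 CPM (2.10%), 22 with DESeq2 (4.79%), and 56 with the replicate block (7.84%). Leaving out 1 library gave 1 to 18 (0.961% to 3.81% of all genes), the 1 being Rpl10l, called lower, and the 18 called higher. The cause was not tested.

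The number with a positive log2 fold change stayed between 76 and 80. Without single libraries the median log2 fold change ran from 0.53 to 0.95 over all genes, from 0.46 to 0.95 for the small subunit and from 0.55 to 0.97 for the large. In the other settings it ran from 0.62 to 0.73 over all genes. Among the tested genes chosen to be given with every value, signs turned for Rps27, Rps27l, Rps28 and Rps29. Rps27 was at 0.0705 with the replicate block and from -0.62 to 0.82 without single libraries. The ranges were -0.39 to 0.76 for Rps27l, -0.20 to 0.75 for Rps28 and -0.0203 to 0.95 for Rps29. Signs of the remaining genes were not followed gene by gene.

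The labels do not say that replicate numbers pair the libraries. Deviations of same-numbered libraries had a correlation of -0.01 over all genes and 0.42 over the 81 ribosomal protein genes. Since the labels do not settle the pairing, the block is given only as an alternative setting. With it, the median log2 fold change of the ribosomal protein genes was 0.73, against 0.70 in the main fit.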
